A study of Cucumis sativus with 6 samples.

Results

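A set of 45 cucumber transcripts was present in every shoot apex library labelled germination pouch and had no count in any library labelled soil plate. They were taken from 24317 transcript models by rule. A transcript had 0 estimated counts in all 3 soil plate libraries and a level of at least 1 CPM (counts per 1e+06 counts of the library, from the estimated counts) in each of the 3 pouch libraries. Identifiers with UNG in place of a chromosome number were left out, which left 23522 models to choose from. The reverse rule, 0 in pouch and at least 1 CPM in every soil plate library, found 0 transcripts. Pouch replicates 2 and 3 had more counts than any soil plate library, and pouch replicate 1 had fewer than any. The rule and its reverse were thus not on equal terms, and the part of library totals in this was not tested. The rule used the contrast between the growth systems, so the difference between the groups is given here as a description, with no test for these 45.

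The libraries came from dissected shoot apices of line 9930, the inbred cucumber whose genome serves as a reference. All seedlings carried the same genotype, were taken at 6 dpg, and had days of 16 h light and 8 h dark at 22 degrees. The pouch group was 3 libraries, each from 20 pooled apices of seedlings raised in wet germination pouches. The soil plate group was 3 libraries, each from 7 pooled apices of seedlings raised on soil inside an agar plate under nylon mesh. The number of apices and the growth system cannot be told apart in this design. Groups follow the sample titles. In each of the 6 libraries the file name carries the other growth system. Every direction given here is that of the titles and would turn round if the file names were right.

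The shoot apical meristem is a small dome of dividing cells at the tip of the shoot, held at a steady size by signals between its stem cells and their neighbours. Leaf primordia arise on its flanks, so a dissected apex holds the meristem together with young leaves and stem tissue. Transcription factors of the PLETHORA family, named in the title of the study, act in growing tips of roots and shoots in Arabidopsis. In pooled tissue of this kind, fewer cells of a type and less RNA per cell cannot be told apart. None of the 45 identifiers matched the RefSeq gene table at hand (0 of 24317 over the whole list). With no names beside the identifiers in the files either, no gene name or function is given and the markers of the meristem could not be looked up.

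The pouch libraries held 28.9 to 47.8 M (M, 1e+06) estimated counts and the soil plate libraries 30.7 to 39.5 M. A level of 1 CPM was worth 28.9 counts in pouch replicate 1, 46.6 in replicate 2 and 47.8 in replicate 3. Models with at least 1 count numbered 17710, 18864 and 20361 in pouch replicates 1, 2 and 3, against 17628, 17486 and 17198 in soil plate replicates 1, 2 and 3. Together the 45 transcripts took 139, 197 and 234 CPM in pouch replicates 1, 2 and 3.

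Most of the 45 were low in the pouch libraries. Their mean over the 3 pouch libraries had a median of 2.86 CPM and ran from 1.24 to 22.1 CPM. In 16 of them the mean was under 2 CPM, in 18 it was from 2 to 5 CPM, in 7 from 5 to 10 CPM and in 4 above 10 CPM. The 15147 other transcripts at 1 CPM or more in every pouch library had a median of 27.7 CPM on the same scale. The threshold bounds all of these values from below.

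The most abundant was CsaV3_2G014490.1, a model of 1086 bases, with 11.6, 29.9 and 24.7 CPM in pouch replicates 1, 2 and 3 and 0 counts in every soil plate library. These levels rested on 336, 1393 and 1183 counts. Its mean was 22.1 ± 9.41 CPM (SD, n = 3). CsaV3_5G023370.1 (1812 bases) had 10.8, 23.4 and 26.2 CPM there and 0 in soil plate. It averaged 20.1 ± 8.24 CPM in pouch (SD, n = 3). In both, pouch replicate 1 was lowest and replicates 2 and 3 lay close together.

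CsaV3_1G002790.1 (1902 bases) differed more between the pouch libraries, with 3.44, 11.4 and 27.9 CPM. CsaV3_7G028230.1 (1196 bases) had 4.94, 11.2 and 16.7 CPM. Both were again lowest in pouch replicate 1, and replicate 3 was highest. These 4 were the transcripts above 10 CPM, and each had 0 counts in soil plate replicates 1, 2 and 3.

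The remaining 6 made up the 10 highest by mean. CsaV3_3G044560.1 (2077 bases) was even across the pouch libraries, at 5.36, 6.90 and 7.503 CPM. CsaV3_3G002460.1 (1803 bases) was also even, at 6.4996, 5.62 and 4.58 CPM, and was highest in replicate 1. CsaV3_6G041360.1 (736 bases) had 2.56, 6.48 and 7.98 CPM. CsaV3_1G030110.1 (2493 bases) had 2.73, 6.65 and 6.71 CPM, so that both of these were more than 2-fold lower in replicate 1. CsaV3_1G040980.1 (1150 bases) had 2.73, 3.09 and 11.1 CPM. CsaV3_4G031860.1 (718 bases) had 1.62, 1.11 and 13.9 CPM. In these last 2 a single library, pouch replicate 3, carried most of the mean.

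**Figure D1:**
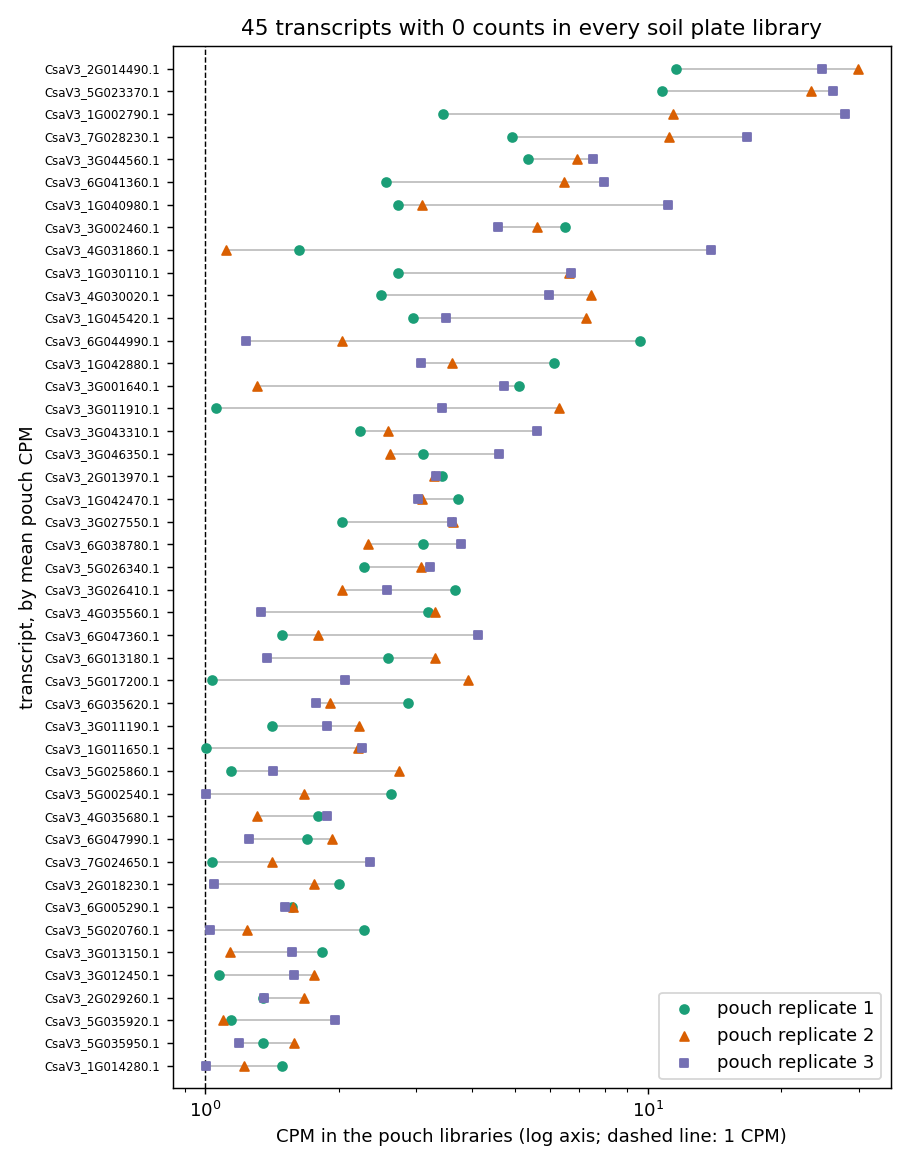
CPM of each of the 45 transcripts in the 3 pouch libraries, on a log axis, ordered by mean, with a grey line from the lowest to the highest library. All values in the soil plate libraries are 0 and are not drawn; most transcripts lie below 5 CPM and 4 have a mean above 10 CPM.

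Agreement between the pouch libraries varied widely among the 45. The ratio of the highest to the lowest pouch library had a median of 2.23. It was largest in CsaV3_4G031860.1, at 12.4, and smallest in CsaV3_6G005290.1 (354 bases), at 1.04, where the values were 1.57, 1.58 and 1.52 CPM. The ratio was over 3 in 9 of 45 (20.0%), against 872 of the 6470 other transcripts in the same range of mean pouch CPM (13.5%). Median ratio in those 6470 was 1.70. Most of the 6470 stood higher within that range (median 9.80 CPM), so the ratios are not compared at equal level.

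Pouch replicate 1 was the lowest of the 3 in 22 of the 45 (48.9%), replicate 2 in 9 and replicate 3 in 14. Among the 6470 others, replicate 1 was lowest in 57.5%. It was lowest in 13 of the 20 that reached 2 CPM in every pouch library.

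At the lowest mean pouch level among the 45, 1.24 CPM in CsaV3_1G014280.1, the soil plate libraries together would hold 127 counts at an equal level. At the highest level, that of CsaV3_2G014490.1, they would hold 2261. An equal level here is an equal CPM on library totals alone. On that scale the median log2 fold change, pouch minus soil plate, of the 17794 transcripts tested below was 0.43. The soil plate libraries together held 102 M counts, in which a limit set at 3 counts over the group is 0.0293 CPM. The pooled pouch level was 41.0-fold this limit in CsaV3_1G014280.1 and 806-fold in CsaV3_2G014490.1. Both were chosen for 0 counts in soil plate, so these ratios describe the choice and are no lower bound on a difference. The limit covers counting error only. It does not cover the spread between libraries or RNA lost before sequencing, and the files carry no molecular identifiers.

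How often a transcript at such levels was at 0 in a library was read within each group, from libraries the rule did not set against each other. Among transcripts at 1 to 2 CPM in both other libraries of the same group, 23.8% were at 0 in pouch replicate 1, 5.21% in replicate 2 and 0% in replicate 3 (0 of 223, exact 95% upper bound 1.64%). In soil plate replicates 1, 2 and 3 the share was 7.27%, 13.6% and 19.2%. At 2 to 4 CPM it was 7.52%, 0.283% and 0.292% in the pouch replicates and 2.31%, 4.05% and 7.14% in the soil plate replicates. At 4 to 8 CPM it was 1.93%, 0.166% and 0.175% in the pouch replicates and 0%, 0.434% and 0.414% in the soil plate replicates. The share was lower at 4 to 8 CPM than at 1 to 2 CPM in every library but pouch replicate 3, where the shares of these 3 classes ran from 0% to 0.292%.

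Above 8 CPM such zeros were rare. At 8 to 16 CPM, 3 of 1539 transcripts (0.195%) were at 0 in pouch replicate 1 and none in the other 5 libraries, of 1034 to 1357 in each. At 16 to 32 CPM, 1 of 2416 was at 0 in pouch replicate 1 and 1 of 1734 in soil plate replicate 2. Of the 45 transcripts, 16 had a mean under 2 CPM and 4 a mean above 10 CPM. The part of single-library zeros in the choice of the 45 was not tested.

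**Figure D2:**
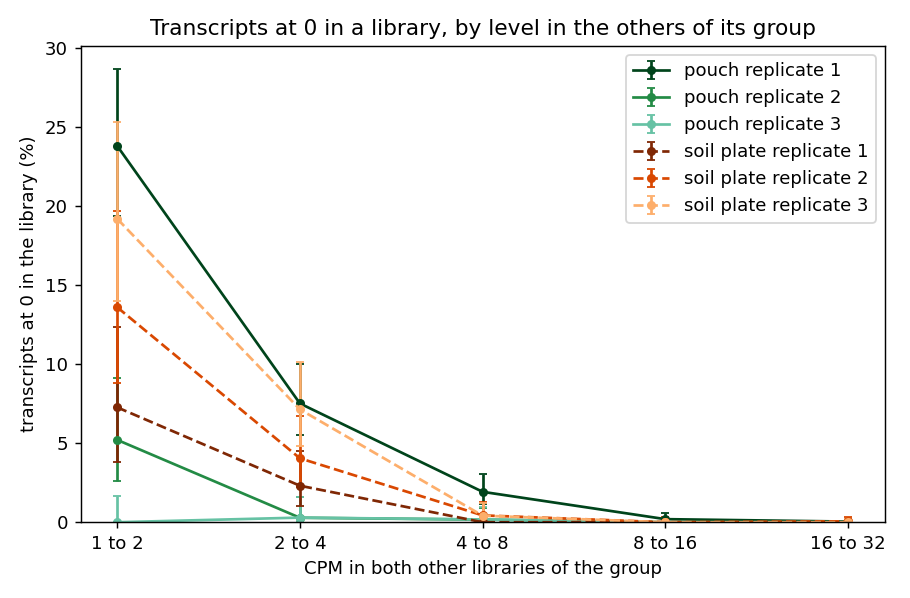
Share of transcripts at 0 in a library, in percent, by their CPM in both other libraries of its group, for the 3 pouch libraries (solid) and the 3 soil plate libraries (dashed). Bars are exact 95% binomial intervals over transcripts; at 1 to 2 CPM the shares run from 0% to 23.8%, and from 8 CPM upward the highest is 0.195%.

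The same levels were then followed across the groups. Of 215 transcripts at 1 CPM or more in every pouch library with a mean of 1 to 2 CPM, 16 were at 0 in all 3 soil plate libraries (7.44%), 31 in 2 of them and 43 in 1. At 2 to 4 CPM 15 of 943 were at 0 in all 3 (1.59%), at 4 to 8 CPM 10 of 1531 (0.653%), at 8 to 16 CPM 2 of 2402 and at 16 to 32 CPM 2 of 3196. The transcripts at 0 in all 3 are the 45 themselves, so these counts only describe the choice. In the opposite direction, of 132 transcripts with a mean of 1 to 2 CPM in soil plate, 0 were at 0 in all pouch libraries, 5 in 2 of them and 14 in 1. Pouch replicates 2 and 3 had more counts than any soil plate library and pouch replicate 1 had fewer, so the directions were not on equal terms.

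In all, 5191 transcripts with a chromosome number had 0 counts in every soil plate library. Of these, 3313 were also at 0 in every pouch library. A further 874 had a count in pouch replicate 3 alone, against 118 in replicate 2 alone and 56 in replicate 1 alone. At least 1 CPM was reached in exactly 1 pouch library by 197, in 2 by 105 and in 3 by the 45. Of the 105, 70 fell short in pouch replicate 1, 25 in replicate 2 and 10 in replicate 3.

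Near the threshold the choice rested on a few counts. Just inside it, CsaV3_1G011650.1 had 1.003, 2.21 and 2.26 CPM in pouch replicates 1, 2 and 3, and CsaV3_5G002540.1 had 2.63, 1.67 and 1.003 CPM. Just outside, with 0 in soil plate, CsaV3_1G000310.1 had 2.39, 0.986 and 1.48 CPM, and CsaV3_5G029060.1 had 2.80, 0.986 and 2.97 CPM. Another 2 were outside for a single soil plate count. CsaV3_7G027450.1 had 2.42, 1.501 and 3.64 CPM in pouch and 1 count in soil plate replicate 1. CsaV3_4G028950.1 had 6.88, 4.40 and 1.36 CPM in pouch and 1 count in soil plate replicate 3. Allowing up to 3 soil plate counts in all gave 56 transcripts in place of 45.

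Each library was also left out of the choice in turn. The transcripts that then met the rule in it were the same 45 each time. Only the number chosen varied, so the shares from different libraries are not independent of each other. Without soil plate replicate 1 the rule chose 88 transcripts, of which 45 were at 0 in that library (51.1%, exact 95% interval 40.2 to 61.9%). Without replicate 2 it chose 87, of which 45 were at 0 in it (51.7%, 40.8 to 62.6%). Without replicate 3 it chose 79, of which 45 were at 0 in it (57.0%, 45.3 to 68.1%). The other 43, 42 and 34 transcripts missing from a pair of soil plate libraries had counts in the library left out. Their medians were 55, 25.03 and 36 counts in soil plate replicates 1, 2 and 3, and 28 of 43, 18 of 42 and 19 of 34 reached 1 CPM there.

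These shares were set beside transcripts in a band of low pouch level, at 1 CPM or more in every pouch library with a mean under 5 CPM. Among those chosen on the other soil plate libraries, 34 of 70 (48.6%), 34 of 62 (54.8%) and 34 of 64 (53.1%) were at 0 in soil plate replicates 1, 2 and 3. Among all 1590 transcripts in that band the share was 9.75%, 10.8% and 14.0%. In each soil plate library the share was higher among transcripts missing from the other soil plate libraries than among all in the band. Levels within the band differed. A mean under 2 CPM was found in 16 of the 34, but in only 215 of the 1590. The shares are thus not compared at equal level. No test was made of the difference, since the first set is part of the second.

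The pouch libraries were read in the same way. Chosen without pouch replicate 1, 45 of 115 transcripts reached 1 CPM in it (39.1%, exact 95% interval 30.2 to 48.7%), and 45 of the 115 were at 0 there. Chosen without replicate 2, 45 of 70 reached 1 CPM in it (64.3%, 51.9 to 75.4%). Chosen without replicate 3, 45 of 55 reached it (81.8%, 69.1 to 90.9%). With a mean under 5 CPM in the other pouch libraries, 34.7%, 58.3% and 78.7% of those chosen reached 1 CPM in replicates 1, 2 and 3. Among all transcripts in that band the shares were 69.8%, 87.1% and 94.6%. Levels within the band were not matched, so these shares are not compared at equal level. All of these intervals treat transcripts as independent and do not cover the spread between libraries.

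By length the 45 ran from 198 bases (CsaV3_6G047990.1) to 5317 bases (CsaV3_3G011910.1), with a median of 1239. The median was 1684 bases in the 6470 other transcripts of the same range of pouch CPM and 1549.5 bases over all 23522 models with a chromosome number. Models under 300 bases made up 7 of the 45 (15.6%), 4.06% of the 6470 and 11.0% of all. Those of 2000 bases and over made up 10 of the 45 (22.2%), 37.0% of the 6470 and 34.6% of all. Most of the 6470 stood higher within that range (median 9.80 CPM, against 2.86 CPM in the 45), so lengths are not compared at equal level. No test was made of these shares.

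Setting levels per length changed the order within the 45. On the deposited TPM scale (transcript abundance corrected for effective length), the 7 models under 300 bases held ranks 1 to 7, with means of 27.6 to 46.4 TPM in the pouch libraries. On the CPM scale the same 7 had means of 1.47 to 2.42 CPM. CsaV3_6G013180.1 (240 bases) was first on the TPM scale, with 45.4, 65.9 and 27.9 TPM in pouch replicates 1, 2 and 3, from 75, 154 and 66 counts. The effective lengths of the 7 were 27.8 to 53.2 bases, and TPM scales inversely with that length. The most abundant by CPM, CsaV3_2G014490.1, came next, with 10.2, 30.1 and 26.1 TPM. The longest, CsaV3_3G011910.1, had 0.143, 0.996 and 0.556 TPM, with a mean near the lowest of the 45 (rank 43).

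**Figure D3:**
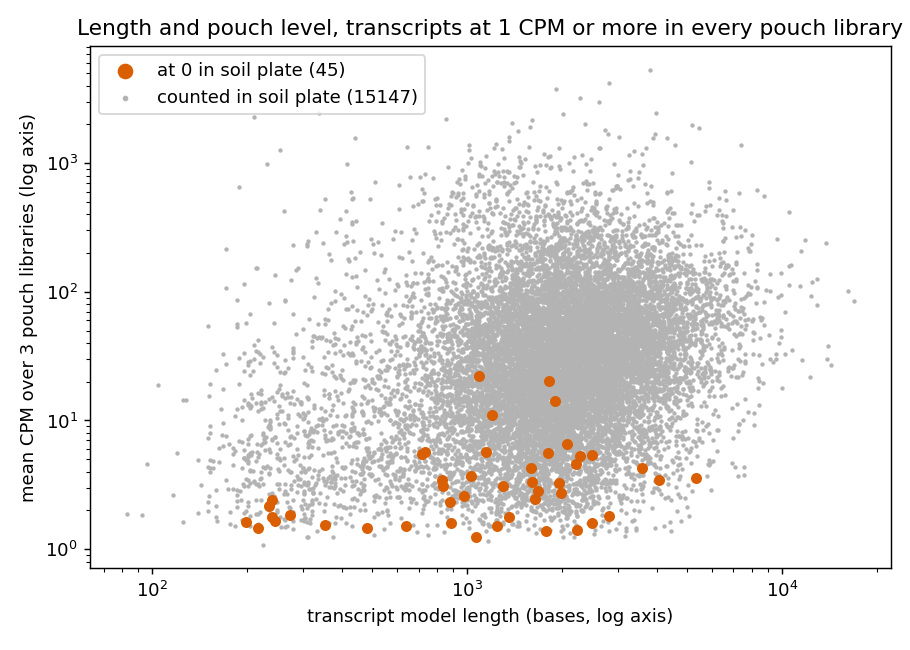
Mean CPM over the 3 pouch libraries against transcript model length in bases, both on log axes, for the 45 transcripts at 0 in soil plate (orange) and the 15147 others at 1 CPM or more in every pouch library (grey). The 45 lie in the lower part of the cloud, between 1.24 and 22.1 CPM, with 7 of them under 300 bases.

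Reads divided between similar sequences touched at least 8 of the 45 (17.8%), as shown by a fractional estimated count in at least 1 library. Among the 6470 others in the same range of pouch CPM, 17.0% had such a fractional count. A whole count does not show that no reads were divided. No member had the same counts as another transcript in every library. In 6 of the 8 the count was fractional in all 3 pouch libraries. For each of these 6, exactly 1 of the 1425 transcripts that were fractional in all 3 pouch libraries completed it to a whole number in each of them, within 0.02 counts. A single such counterpart was found for 800 of the 1425 (56.1%). The counterparts were found after the values had been seen, and sharing of reads is read here from the sums alone.

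In 3 of the 6 the counterpart was the neighbouring identifier. CsaV3_6G044990.1 (3597 bases) had 9.60, 2.04 and 1.23 CPM in pouch replicates 1, 2 and 3. Its neighbour CsaV3_6G045000.1 (5987 bases) had 101, 177 and 195 CPM there, against 103, 113 and 123 CPM in soil plate replicates 1, 2 and 3. The neighbour was thus abundant in every soil plate library, where the member stood at 0. CsaV3_3G011910.1 had 1.06, 6.30 and 3.42 CPM in pouch. Its neighbour CsaV3_3G011920.1 (3273 bases) had 21.7, 12.5 and 20.4 CPM there and 17.5, 36.4 and 17.9 CPM in soil plate. CsaV3_1G002790.1, the third most abundant of the 45, paired in this way with CsaV3_1G002780.1 (3864 bases). That neighbour had 22.4, 33.1 and 26.7 CPM in pouch and 29.9, 31.2 and 21.4 CPM in soil plate.

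Whether the members of these pairs lacked reads in soil plate, or had them assigned to the counterpart, was not tested. The edgeR quasi-likelihood test found none of the 3 neighbours changed (adjusted p = 0.838, 0.270 and 0.344 in the order given).

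The other 3 counterparts carried a different chromosome number. CsaV3_6G005290.1 paired with CsaV3_1G019700.1 (378 bases), which averaged 47.9 ± 9.11 CPM in pouch and 30.04 ± 15.1 CPM in soil plate (SD, n = 3 each). That counterpart was not called changed (log2 fold change, pouch minus soil plate, 0.29, edgeR adjusted p = 0.653). CsaV3_3G043310.1 (4052 bases) had 2.23, 2.59 and 5.61 CPM in pouch. It paired with CsaV3_1G002150.1 (5533 bases), at 59.2 ± 7.92 CPM in pouch and 36.0 ± 13.0 CPM in soil plate (SD, n = 3 each). CsaV3_1G002150.1 was not called changed either (log2 fold change 0.37, edgeR adjusted p = 0.395). Its counts were fractional in all 3 soil plate libraries, where the member stood at 0. This shows reads divided with some other transcript as well.

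CsaV3_5G023370.1, the second most abundant of the 45, had a counterpart that was itself scarce in soil plate. CsaV3_2G026780.1 (1521 bases) held 8.74, 16.4 and 13.0 CPM in pouch replicates 1, 2 and 3. In soil plate replicates 1, 2 and 3 it held 45, 1 and 0 counts, which is 1.14, 0.0310 and 0 CPM. All pouch libraries were above all soil plate libraries. Its log2 fold change, pouch minus soil plate, was 4.67 (SE 1.26, edgeR adjusted p = 0.0548), which did not pass 0.05. The pair together thus held 45, 1 and 0 counts in soil plate.

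Identifiers with each of the 7 chromosome numbers were found among the 45. Chromosome number 3 had 11, numbers 1, 5 and 6 had 8 each, numbers 2 and 4 had 4 each and number 7 had 2. Per 1000 listed identifiers this was highest for number 5 (2.47) and lowest for number 7 (0.814), and the counts are small. No genome of the files' build was at hand, so places are given in the order of the identifiers and not as coordinates.

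The 45 were scattered along that order. No 2 of them were next to each other. The closest pair, CsaV3_5G035920.1 and CsaV3_5G035950.1, were 3 listed identifiers apart, with 1.14, 1.09 and 1.96 CPM in the first and 1.35, 1.59 and 1.19 CPM in the second in pouch replicates 1, 2 and 3. The next closest, CsaV3_4G035560.1 and CsaV3_4G035680.1, were 12 apart. The median distance between successive members on one chromosome number was 251.5 listed identifiers.

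**Figure D4:**
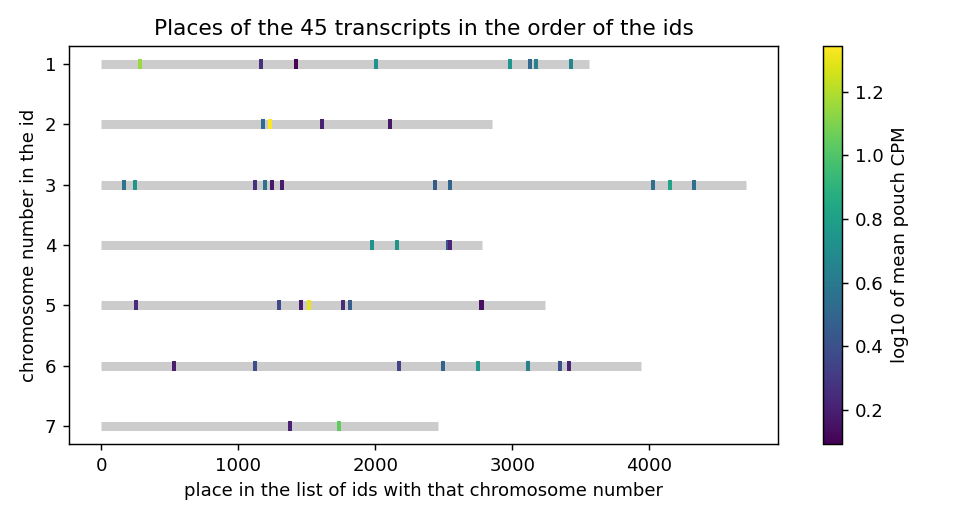
Places of the 45 transcripts (ticks, coloured by log10 of mean pouch CPM) in the list of identifiers with each chromosome number (grey bars, as long as the number of listed identifiers). Ticks stand on all 7 bars, and the closest pair is 3 places apart on number 5.

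The transcripts on each side of the 45, 90 in all, were not chosen by the rule and were read as a separate set. Of the 90, 22 had 0 counts in all 6 libraries (24.4%), against 14.1% of all other transcripts with a chromosome number. A further 7 were at 0 in soil plate and had counts in pouch (7.78%, against 7.81%). These differences were not tested. Counts in soil plate were found on both sides of 23 members, on 1 side of 15 and on neither side of 7. Transcripts at 0 in all 6 libraries stood on both sides of 4 members, named after the values had been seen: CsaV3_6G041360.1, CsaV3_2G013970.1, CsaV3_1G030110.1 and CsaV3_4G030020.1. Of these, CsaV3_2G013970.1 (1607 bases) was the steadiest, at 3.42, 3.28 and 3.32 CPM in pouch replicates 1, 2 and 3.

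The edgeR test across the whole table covered 57 of the 90. It called 4 of them changed (7.02%) at an adjusted p under 0.05, against 7.85% of all 17794 tested. Of the 4, 2 were higher in pouch (3.51%, against 2.93% of all tested) and 2 lower (3.51%, against 4.92%). The share was near the background in both directions. The median log2 fold change, pouch minus soil plate, was -0.02 in the 57 and 0.06 in all tested. With library totals alone in place of TMM scaling the median of all tested was 0.43, and 11 of the 57 were called (19.3%), 9 higher and 2 lower in pouch. In that fit 14.6% of all tested were called, and 79.3% of those calls were higher in pouch. Without pouch replicate 2 the test called 2 of the adjacent transcripts, and without pouch replicate 3 or soil plate replicate 1 it called 1.

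CsaV3_5G023360.1 (714 bases), next to CsaV3_5G023370.1, had the largest called rise of the 57. It had 42.5, 38.2 and 32.9 CPM in pouch replicates 1, 2 and 3, against 1.16, 0.837 and 1.71 CPM in soil plate replicates 1, 2 and 3. The means were 37.9 ± 4.83 CPM and 1.24 ± 0.441 CPM (SD, n = 3 each), and the groups were far apart. Its log2 fold change, pouch minus soil plate, was 4.598 (SE 0.37, edgeR adjusted p = 0.00126), and it was called in every alternative fit, without each library in turn included. It held fractional counts in some libraries, which shows reads divided with some other transcript.

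CsaV3_6G044980.1 (1823 bases), next to CsaV3_6G044990.1, also rose. It had 26.2, 39.9 and 46.2 CPM in pouch, against 14.2, 6.54 and 13.7 CPM in soil plate. The log2 fold change, pouch minus soil plate, stood at 1.34 (edgeR SE 0.32, adjusted p = 0.0379). The call was lost without pouch replicate 2 (0.113), pouch replicate 3 (0.156), soil plate replicate 1 (0.0974) or soil plate replicate 2 (0.0801), and with the replicate number as a block (0.0539), all adjusted p from edgeR.

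CsaV3_3G011900.1 (1236 bases), next to CsaV3_3G011910.1, fell to 18.7, 16.0 and 14.2 CPM in pouch, against 41.1, 55.1 and 32.8 CPM in soil plate. On the log2 scale this was a fold change of -1.74 (edgeR SE 0.27, adjusted p = 0.0112). The call was lost without pouch replicate 3 (adjusted p = 0.0641, edgeR) or soil plate replicate 1 (0.0510). CsaV3_1G042480.1 (1751 bases), next to CsaV3_1G042470.1, fell to 5.25, 5.15 and 7.52 CPM in pouch, against 15.2, 11.3 and 19.8 CPM in soil plate. The fold change was -1.73 on the log2 scale (edgeR SE 0.35, adjusted p = 0.0234). That call was lost without pouch replicate 2 (adjusted p = 0.0919, edgeR), pouch replicate 3 (0.0907) or soil plate replicate 1 (0.0752).

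**Figure D5:**
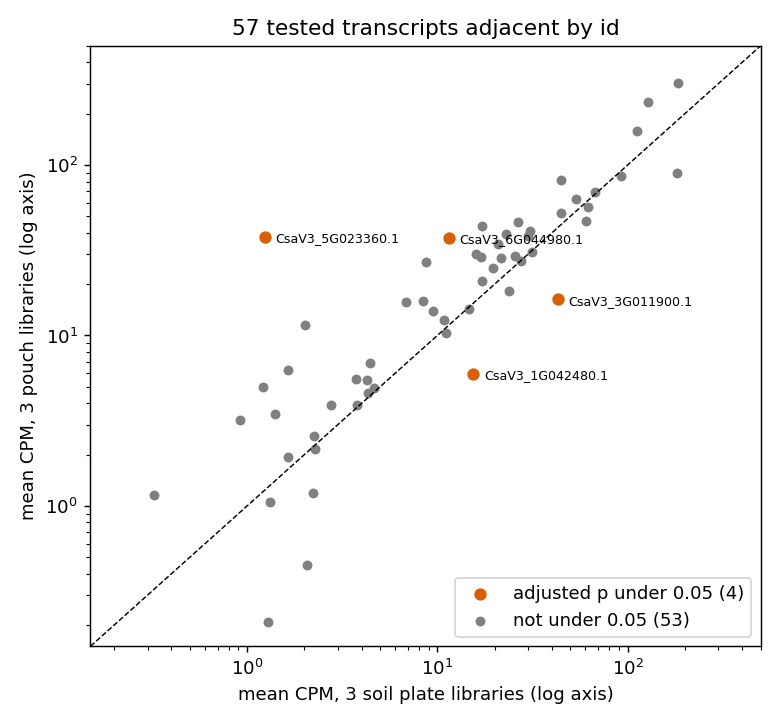
Mean CPM over the 3 pouch libraries against mean CPM over the 3 soil plate libraries, both on log axes, for the 57 tested transcripts next to one of the 45. The dashed line marks equal CPM on library totals alone. The calls come from the TMM-scaled fit, so a point above the line can have a negative log2 fold change in that fit. The 4 transcripts with an adjusted p under 0.05 are named, 2 above and 2 below the line.

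All 45 transcripts passed the filter on low counts of that fit, through their counts in the pouch libraries alone. The rule used the same contrast, so no result of the fit is given for them.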

How the data were processed

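RNA was sequenced from 6 libraries of cucumber shoot apices, from a strand-preserving (directional) kit, per the labels' protocols. The submitters' processing notes name fastp 0.23.4 and kallisto 0.46.1; settings, index and annotation release are not given in the sources used here. The deposited tables give, per the file headers, model length and effective length, then an estimated count with its TPM, per transcript model and library. The estimated counts are not normalized and are partly fractional. The deposited TPM values have the same sum in every library.

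Groups were taken from the sample titles. CPM was the estimated count over the library sum. For tests, estimated counts were rounded, filtered with filterByExpr and TMM-scaled. Pouch was set against soil plate with edgeR 4.0.16 (two-sided quasi-likelihood test, R 4.3.3) with Benjamini-Hochberg adjustment over all 17794 transcripts kept. Fold changes are pouch minus soil plate. The standard error is the absolute log2 fold change over the square root of F. A count was called fractional when it lay more than 1e-06 from a whole number. The fits were tested on simulated data. DESeq2 1.42.0, limma 3.58.1 (voom), other scalings and filters, a block on replicate number and fits without each library served as alternatives. Intervals are exact Clopper-Pearson intervals (scipy 1.17.1).

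The 45 members, the rule and the tests were chosen with earlier results of these data known. Transcripts were named by rule. The rule covered the 10 highest by mean pouch CPM and those next to another member. It also covered those just inside and outside the thresholds, the extremes of length and of the pouch ratio, and the adjacent transcripts with the largest called rise and fall. All others, the remaining called adjacent transcripts included, were named after their values had been seen. The titles call the libraries of a group biological replicates. Markers of cell types were not analysed, since no identifier matched a name.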

Additional observations from a re-analysis of the deposited data

Results flagged for a closer look

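Outside the chosen set, 3 transcripts with UNG identifiers, which carry no chromosome number, met the same thresholds and had 0 counts in every soil plate library. CsaV3_UNG060470.1 (1206 bases) had 16.4, 24.01 and 4.33 CPM in pouch replicates 1, 2 and 3. CsaV3_UNG040220.1 (192 bases) had 3.60, 6.09 and 2.52 CPM, and CsaV3_UNG052420.1 (1614 bases) had 3.25, 1.43 and 3.45 CPM. They are given here because no comparison above uses them. Groups of 3 libraries were too small for a test of single outlying libraries.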

How the results depend on the processing

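The number of transcripts at 0 in soil plate, 45, was 87 at a threshold of 0.5 CPM, 20 at 2 CPM, 3 at 5 CPM and 85 at 1 TPM, of which 32 were among the 45. It ran from 55 to 115 when a library was left out, where each choice contains the 45 by construction. TMM scaling gave 37, omission of fractional transcripts 37, a total of up to 3 soil plate counts 56, and UNG identifiers 48. The median of the mean pouch CPM, 2.86, was 1.64, 4.94 and 20.1 CPM at those 3 thresholds, 1.24 with the TPM rule, 3.28 with TMM scaling, 2.48 without fractional transcripts and 1.90 to 3.09 with a library left out. Pouch replicate 1 was the lowest in 34, 13 and 3 transcripts at 0.5, 2 and 5 CPM.

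At 5 CPM the share at 0 in the left-out library was 75% for soil plate replicate 1 (3 of 4) and 30% for replicate 2 (3 of 10). The share that reached the threshold in the left-out pouch library was 23.1% for replicate 1 and 100% for replicate 2 at 5 CPM, and 83.3% for replicate 2 at 2 CPM.

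Of the adjacent transcripts 4 were changed. The number was 11 with library totals, 7 with DESeq2, 7 with limma-voom, 9 of 113 tested (7.96%) and 23 of 297 (7.74%) with 2 and 5 identifiers on each side, and 1 to 6 with a library left out. Over the whole table, 1396 were changed, against 2595, 2454 and 2228 with library totals, DESeq2 and limma-voom and 103 to 2102 with a library left out: 2102, 247 and 103 without pouch replicates 1, 2 and 3, and 141, 266 and 1684 without soil plate replicates 1, 2 and 3. Without pouch replicate 3 or soil plate replicate 1 the adjacent number was 1. The cause of these shifts was not tested. With the replicate block 3 adjacent transcripts and 628 in all were changed. Across genes, libraries with the same number deviated from their groups with correlations of -0.03, -0.02 and -0.03, so no shared shift was seen. Whether libraries with the same number were handled together is not given in the labels. The transcripts under 2 CPM rest on 29 to 128 counts in each pouch library, where precision is lowest.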
